A study of Homo sapiens with 8 samples.

Results

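Genes of the platelet surface were examined for binding of HA-tagged RUNX1: GP1BA, GP1BB, GP9 and GP5 of the von Willebrand factor receptor, GP6, the collagen receptor, and ITGA2B and ITGB3, the subunits of the fibrinogen receptor. These 7 of 20037 protein-coding genes were taken by name, and the peaks in or within 20 kb of each gene were collected, which gave 106 of 89672 peaks. The peaks merged into 33 regions, of 33478 in the series.

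The peaks came from CUT&RUN, in which an antibody guides a nuclease that cuts DNA beside a bound protein, in HEL, an established erythroleukemia cell line. The groups were HEL cells transduced with HA-tagged RUNX1-4D, HA-tagged RUNX1-4A or HA-tagged WT RUNX1, with 2 biological replicates each, and an empty vector line that served as background for peak calling. The labels do not spell out 4D and 4A, but the series title concerns serine/threonine phosphorylation, which aspartate (D) is commonly used to mimic and alanine (A) to block. All lines were selected with 2 µg/ml puromycin and read with an anti-HA antibody, so untagged RUNX1 was not seen, and the labels give no change to the cells' own RUNX1 gene. They do not say whether a line was 1 clone, and RNA was not analysed here, so the levels of these genes and the identity of the cells could not be checked against markers. Read depth is unknown, and the replicate 1 lists (5358, 6266 and 6764 peaks in 4D, 4A and WT) were much shorter than the replicate 2 lists (21122, 24251 and 25911). A site missing from a list was therefore not called in that list, and nothing more can be read from it.

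GP1BA, GP1BB, GP9 and GP5 encode the chains of the GPIb-IX-V complex, through which platelets catch von Willebrand factor on a damaged vessel wall. GP6 then binds collagen and signals through tyrosine kinases, and the integrin αIIbβ3 made from ITGA2B and ITGB3 binds fibrinogen and ties platelets to each other. Loss of GPIb or GPIX chains causes Bernard-Soulier syndrome, loss of the integrin causes Glanzmann thrombasthenia, and inherited RUNX1 mutations cause a platelet disorder.

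Promoter sequence was at hand for 5 of the 7 genes, from 250 bases before to 50 after the start site (RefSeq, GRCh38.p14). The 4 below are shown because a region called in both replicates of at least 1 line lay over them. Each is written 5′ to 3′ along the gene. Capitals mark RUNX motifs (TGTGGT or TGCGGT) and GATA motifs (AGATAA or TGATAA or AGATAG or TGATAG), searched on both strands.
GP1BB promoter, chr22:19723289-19723588, plus strand: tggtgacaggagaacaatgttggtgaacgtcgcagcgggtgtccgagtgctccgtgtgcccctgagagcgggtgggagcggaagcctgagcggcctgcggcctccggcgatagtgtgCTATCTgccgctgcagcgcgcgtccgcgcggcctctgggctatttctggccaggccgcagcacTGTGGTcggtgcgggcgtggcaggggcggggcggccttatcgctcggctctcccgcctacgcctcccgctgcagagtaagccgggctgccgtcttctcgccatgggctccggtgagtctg
GP9 promoter, chr3:129060529-129060828, plus strand: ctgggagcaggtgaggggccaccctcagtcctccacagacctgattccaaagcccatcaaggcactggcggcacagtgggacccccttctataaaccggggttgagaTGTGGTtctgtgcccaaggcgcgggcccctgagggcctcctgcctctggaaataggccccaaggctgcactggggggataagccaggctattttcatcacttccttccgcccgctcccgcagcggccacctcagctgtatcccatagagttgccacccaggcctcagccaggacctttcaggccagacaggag
ITGA2B promoter, chr17:44389600-44389899, minus strand: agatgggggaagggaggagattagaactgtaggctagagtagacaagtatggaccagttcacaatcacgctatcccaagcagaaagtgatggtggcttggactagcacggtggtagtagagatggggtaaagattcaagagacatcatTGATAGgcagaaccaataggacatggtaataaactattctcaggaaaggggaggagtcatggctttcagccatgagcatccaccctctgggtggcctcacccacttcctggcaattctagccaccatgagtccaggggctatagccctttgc
GP6 promoter, chr19:55038215-55038514, minus strand: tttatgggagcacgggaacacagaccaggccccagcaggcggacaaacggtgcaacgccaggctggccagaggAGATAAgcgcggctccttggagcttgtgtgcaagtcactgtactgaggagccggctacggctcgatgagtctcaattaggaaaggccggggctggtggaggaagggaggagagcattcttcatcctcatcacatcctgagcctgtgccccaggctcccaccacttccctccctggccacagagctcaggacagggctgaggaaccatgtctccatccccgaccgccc

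A RUNX motif was found in 2 of the 5 promoters, those of GP1BB and GP9, once each and as TGTGGT. The share was 19.6% of all 35116 promoters of the same length and 18.6% of the 15843 protein-coding ones. In GP1BB it spans bases −70 to −65 from the start site, and in GP9 bases −143 to −138. A GATA motif was present in GP1BB, GP5, GP6 and ITGA2B, once in each, against 24.97% of all promoters and 19.7% of protein-coding ones. ETS motifs (CGGAA or AGGAA, both strands) were present in all 5, as in 77.6% of all promoters and 78.6% of protein-coding ones. The 2 in GP9 share a base. No GATA motif overlapped a RUNX motif. A match or its absence describes only these letters in this window.

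RUNX1 was called near 5 of the 7 genes in the 4D set, 5 in the 4A set and 6 in the WT set, where a set holds the regions called in both replicates of a line. The background was 28.0% of all protein-coding genes in 4D, 31.1% in 4A and 34.9% in WT. GP1BA, GP1BB, GP9, ITGA2B and ITGB3 were called in each line, GP6 in WT alone, and GP5 in none. Regions called in all 6 libraries lay near the same 5 genes, against a background of 21.0% of genes. The 3 replicate 2 lists shared a region at 6 genes, all but GP5, against 54.8%. Most members were thus called by rules that most other genes did not meet, except in the long replicate 2 lists, where the background itself was over 50%. The members and the window were chosen with earlier results of these data known, so these counts are given without a test.

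**Figure D1:**
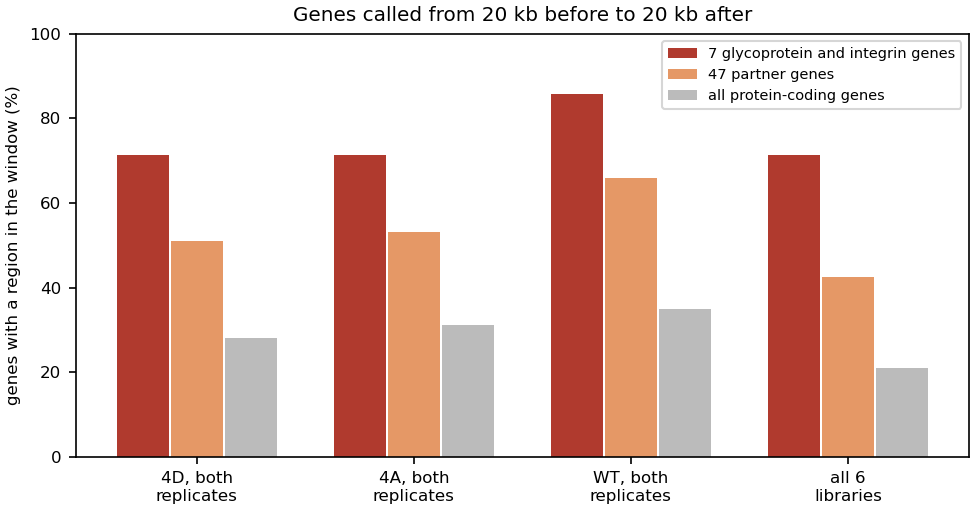
Share of genes (%, y axis) with a region in or within 20 kb of the gene, for regions called in both replicates of 4D, 4A or WT and in all 6 libraries. The 7 genes stand above the 47 partner genes and these above all 20037 protein-coding genes under each rule.

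The 7 windows were 41.2 to 99.9 kb long, around a median of 64.1 kb for all genes, and held between 2 (ITGA2B) and 10 (GP1BA) regions. The median protein-coding gene had 2 regions. For GP1BA, 1.86% of genes had at least as many regions, for ITGB3 with 6 regions in the longest window 10.1%, and for ITGA2B 51.4%. Of the 33 regions, 6 were called in all libraries, 17 in all 3 replicate 2 lists, 22 in no replicate 1 list and 6 in 1 library alone. An end of another protein-coding gene was nearer than the member for 15 of them, including 7 of the 10 at GP1BA. Peaks in these windows were between 144 and 2418 bp wide.

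**Figure D2:**
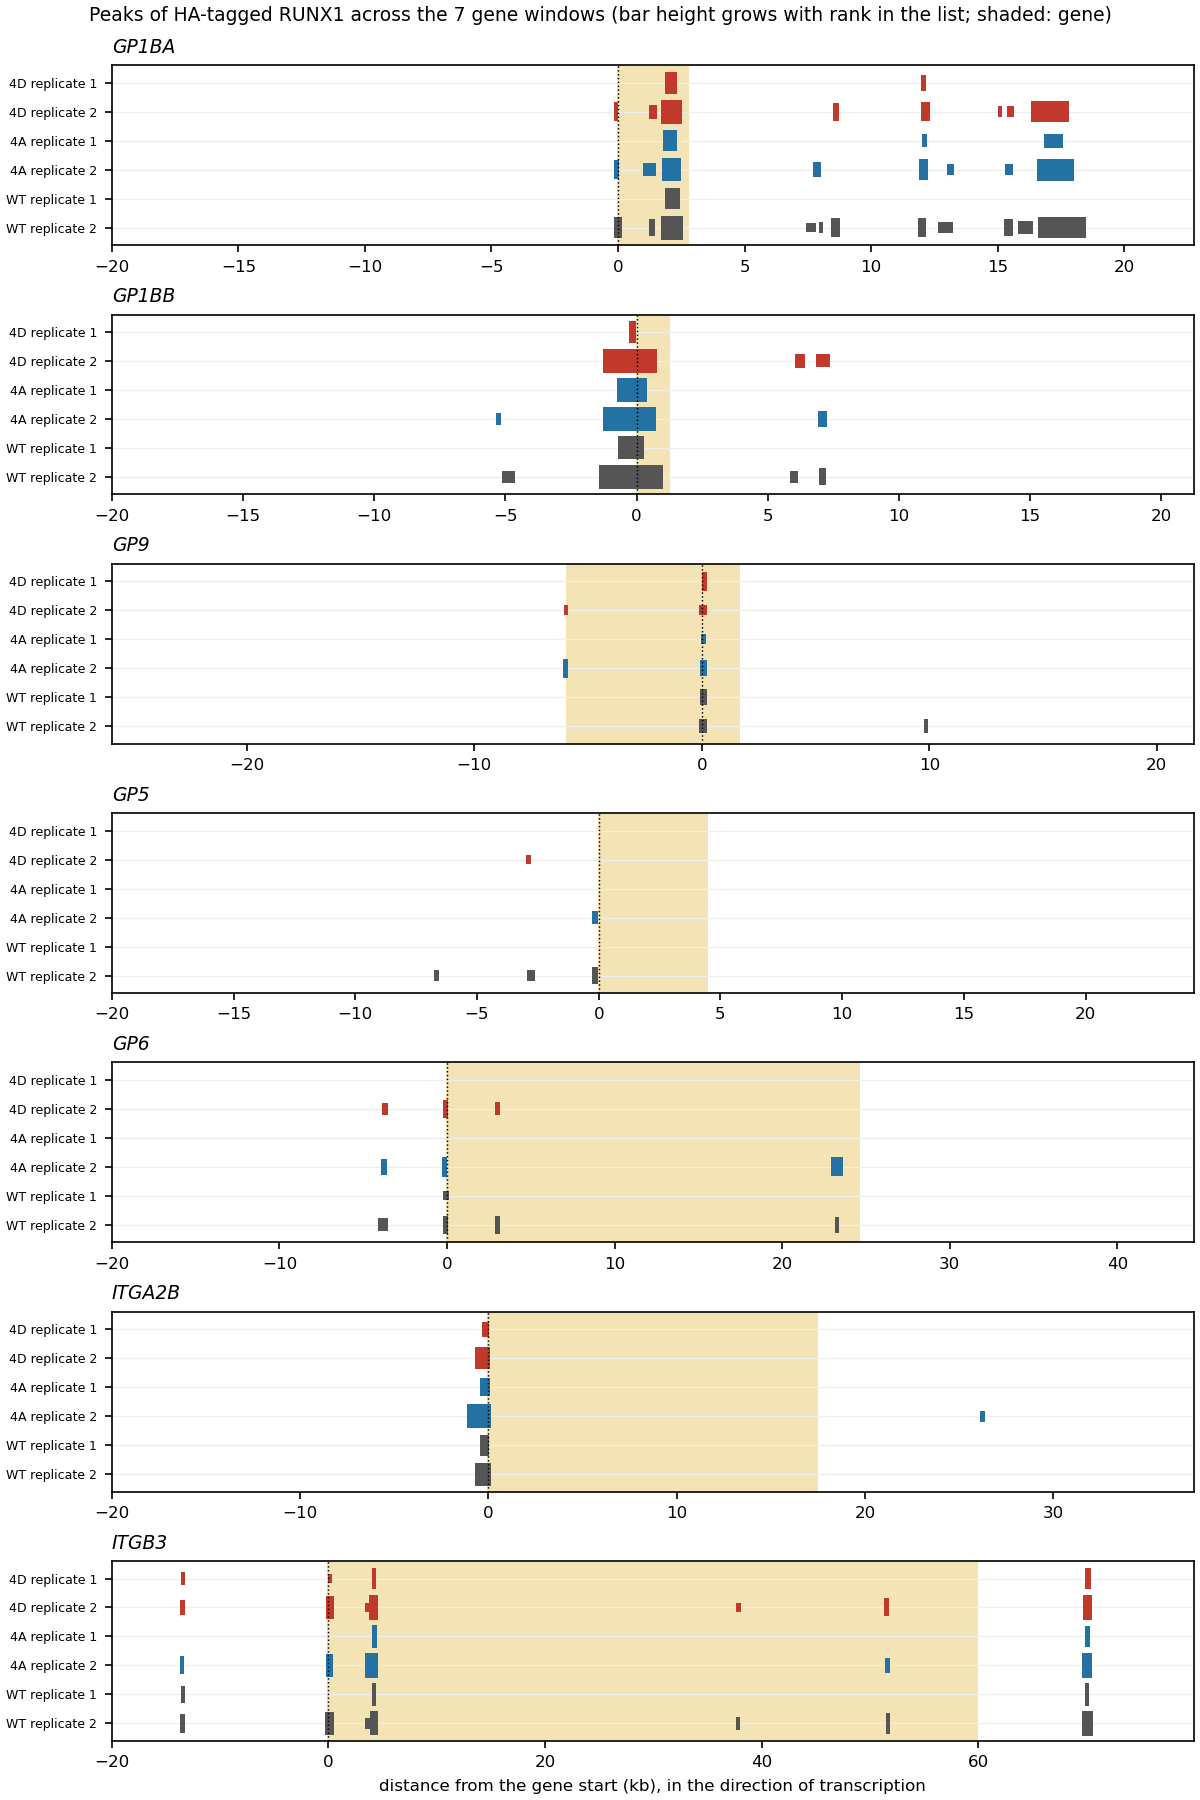
Peaks in each library (rows) against distance from the gene start (x axis, kb, in the direction of transcription), 1 panel per gene, with the gene shaded. Bar height grows with the rank of the peak in its list, very narrow peaks are drawn at a minimum width, and the GP9 shading includes predicted transcripts that begin upstream of its start site. Columns of bars through all 6 rows mark the shared regions at GP1BA, GP1BB, GP9, ITGA2B and ITGB3.

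GP1BA encodes GPIbα, the chain that binds von Willebrand factor (chromosome 17, 4932277 to 4935023). Its main region lay inside the gene, 2.11 kb from the lower end (4933976 to 4934858). The gene is known to run upward in coordinates, so the lower end is taken as its start, and the same holds for ITGB3. The −log10 q of the region, the authors' measure of peak strength, was 17.3 and 66.9 in 4D (replicates 1 and 2), 16.8 and 61.2 in 4A, and 22.6 and 84.4 in WT. In each line the replicate 2 value was the higher, and the ranges of the lines overlapped. Within each replicate number the highest value was in WT, which also had the longest list. The fold enrichment over background was 11.7 and 15.5 in 4D, 11.7 and 12.7 in 4A, and 13.7 and 21.5 in WT. The region ranked between the 76.6th and the 96.9th percentile of −log10 q of the lists.

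At the GP1BA start itself, with its summit at −0.10 kb (4932112 to 4932428), a weaker region was called in the 3 replicate 2 lists alone, with −log10 q of 17.4 in 4D, 14.9 in 4A and 20.8 in WT. Between it and the main region, a region 1.34 kb into the gene had 6.30, 5.65 and 12.7 in the same lists. The other 7 regions of the window lay 7.81 kb or more from the start, at RNF167, a ubiquitin ligase, PFN1, the actin-binding protein profilin, and ENO3, the muscle enolase. One of them, inside RNF167 and 12.0 kb from the GP1BA start (4944141 to 4944602), was called in both 4D libraries (−log10 q 7.1 and 17.0), both 4A libraries (4.54 and 25.3) and in WT replicate 2 alone (17.5).

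GP1BB encodes GPIbβ, which is disulfide-linked to GPIbα (chromosome 22, 19723539 to 19724771). Its region (19722122 to 19724539) covered the promoter printed above and ranked highest of the promoter regions. The −log10 q was 20.1 and 95.1 in 4D, 38.8 and 78.1 in 4A, and 34.4 and 94.9 in WT. The fold enrichment was 12.9 and 18.5 in 4D, 18.7 and 14.0 in 4A, and 17.0 and 20.7 in WT. The −log10 q of 4A lay between the replicates of 4D and between those of WT, so the lines overlapped. Summits lay at −114 and −106 bases from the start site in 4D, −119 and −100 in 4A, and −109 and −102 in WT. They thus fell within 19 bp of each other in all 6 libraries, between the GATA motif and the RUNX motif of the printed promoter and 30 to 49 bp from the RUNX motif. The upper end of SEPTIN5, a septin of the cytoskeleton, lies 0.113 kb from the median summit, so the peak also covers the end of that gene. The other 4 GP1BB regions were called in replicate 2 lists alone.

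GP9 encodes GPIX, which the complex needs to reach the surface (chromosome 3, 129054845 to 129062406, including predicted transcripts, start site at 129060779). A region over the start site (129060668 to 129061026) was called in all 6 libraries. Its −log10 q was 11.0 and 2.90 in 4D, 2.57 and 8.47 in 4A, and 9.80 and 6.31 in WT. The highest value was in 4D replicate 1, and in 4D and WT the shorter replicate 1 list had the higher value. The region ranked between the 9.12th and the 66.8th percentile. Summits lay downstream of the start site, at 157 and 41 bases in 4D, 84 and 108 in 4A, and 56 and 71 in WT, so 179 to 295 bp from the RUNX motif of the promoter. At the lower end of the gene, where predicted transcripts begin, a region (129054718 to 129054882) was called in 4D replicate 2 (−log10 q 2.95) and 4A replicate 2 (14.0) and in no WT library.

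GP5 encodes GPV, a chain on which the surface level of the complex depends less (chromosome 3, 194394821 to 194399266, minus strand). It was the 1 member with no region in both replicates of any line. A region over its promoter (194399307 to 194399561) was called in 4A replicate 2 (−log10 q 4.95) and WT replicate 2 (12.6). One 2.74 kb upstream, nearer to the end of ATP13A3, was called in 4D replicate 2 (1.66) and WT replicate 2 (3.87), and another, 6.74 kb upstream and inside ATP13A3, in WT replicate 2 alone (4.34). The promoter summits lay 139 (4A) and 160 (WT) bases before the start site. No replicate 1 list had a peak in the window.

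GP6 encodes GPVI, which signals through the Fc receptor γ chain (chromosome 19, 55013705 to 55038264, minus strand). The region over its promoter (55038131 to 55038561) was called in 4D replicate 2 (−log10 q 12.0), 4A replicate 2 (20.02) and both WT libraries (2.13 and 13.2). The WT replicate 1 peak that puts GP6 in the WT set stood at the 2.36th percentile of its list, near the threshold for calling a peak. Summits were spread from −198 (4A replicate 2) to −18 (4D replicate 2), with −134 and −98 in WT. The other 3 regions were found in replicate 2 lists alone. The one 3.83 kb upstream, inside RDH13, was shared by the 3 lines, with −log10 q of 4.49 in 4D, 8.36 in 4A and 5.59 in WT.

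ITGA2B encodes the integrin chain αIIb (CD41), a marker of the megakaryocytic lineage (chromosome 17, 44372181 to 44389649, minus strand). A single region at the promoter (44389483 to 44390806) carried the signal in all 6 libraries. The −log10 q was 6.42 and 35.6 in 4D, 10.1 and 70.6 in 4A, and 21.9 and 41.8 in WT. The fold enrichment was 5.87 and 9.89 in 4D, 6.37 and 13.9 in 4A, and 10.1 and 12.0 in WT. With the replicates pooled the ranges of the lines overlapped, with the lowest value in 4D and the highest in 4A. Within each replicate number both measures were lowest in 4D, which also had the shortest list. They were highest in WT in replicate 1 and in 4A in replicate 2. Summits lay upstream of the start site, at −159 and −310 bases in 4D, −205 and −173 in 4A, and −142 and −250 in WT. The printed promoter holds no RUNX motif by the letters searched, and its GATA motif, at −102 to −97, lies downstream of all 6 summits. The only other region of this window was inside FAM171A2 and was called in 4A replicate 2 (−log10 q 3.44).

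Over the 300-base promoter, 3 of the 5 genes with one (GP1BB, GP9 and ITGA2B) had a region called in all 6 libraries, against a background of 8.24% of 15843 protein-coding promoters. With the 3 replicate 2 lists, 4 of the 5 had one, GP6 being added, against 27.0%.

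**Figure D3:**
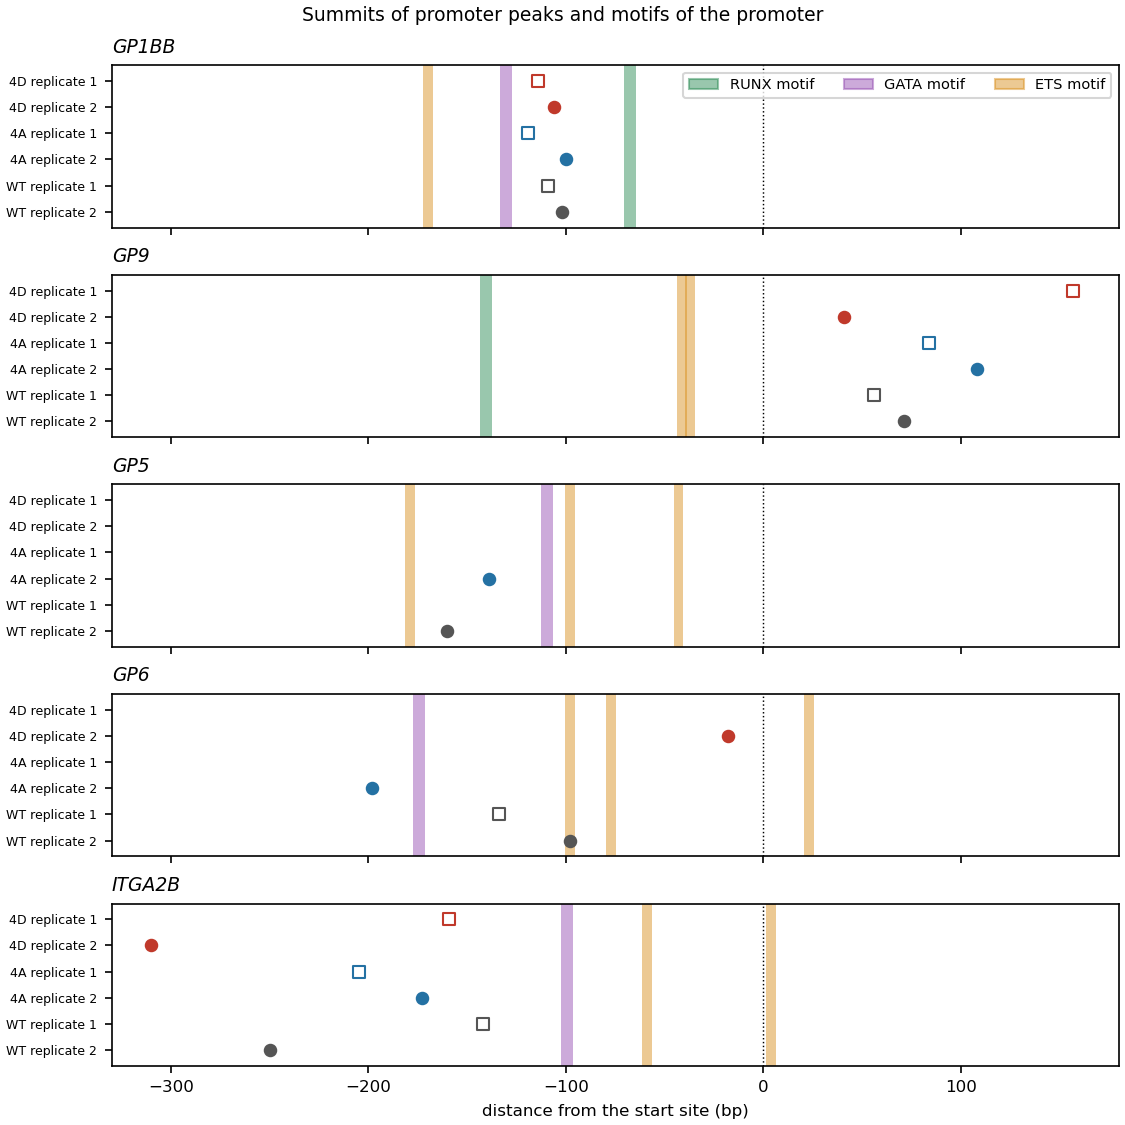
Summit of the strongest peak over each promoter by library (rows, open squares for replicate 1 and filled circles for replicate 2) against distance from the start site (x axis, bp), with RUNX, GATA and ETS motifs as bands. The 6 GP1BB summits fall within 19 bp, while GP9 summits lie downstream and ITGA2B summits upstream of the start site.

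ITGB3 encodes the integrin chain β3, shared with the vitronectin receptor (chromosome 17, 47253827 to 47313743). It was the 1 member with 2 regions called in all 6 libraries, and 4.57% of protein-coding genes had at least as many. Its window was the longest of the 7, at 99.9 kb against a median of 64.1 kb for all genes, and this share does not allow for length. One lay inside the gene 4.16 kb from its start (47257213 to 47258399). Its −log10 q was 14.1 and 88.0 in 4D, 21.6 and 92.7 in 4A, and 40.8 and 76.0 in WT. WT had the highest value in replicate 1 and the lowest in replicate 2, and 4A stood above 4D in both. The other (47323410 to 47324441) lay 10.1 kb beyond the upper end of ITGB3 and 0.125 kb from EFCAB13, a calcium-binding protein gene, to which it is nearer. Its −log10 q was 14.7 and 108 in 4D, 19.3 and 139 in 4A, and 40.5 and 163 in WT. Its fold enrichment was 7.59 and 20.1 in 4D, 7.63 and 20.5 in 4A, and 11.7 and 30.4 in WT. Within each replicate number, both measures were highest in WT and lowest in 4D, which is also the order of the list lengths. With the replicates pooled the values of the lines overlapped, and the replicates of every line differed by more than the lines did within a replicate number.

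At the ITGB3 start, a region (47253513 to 47254339) was called in both 4D libraries (−log10 q 2.23 and 43.3), in 4A replicate 2 (32.2) and in WT replicate 2 (51.1). The 4D replicate 1 peak stood at the 6.30th percentile of its list. At 13.5 kb before the start, a region (47240159 to 47240618) was called in both 4D libraries (4.73 and 6.69), in 4A replicate 2 (12.4) and in both WT libraries (11.5 and 15.4). This region lay nearer to MYL4, the atrial myosin light chain, 12.6 kb away. Both regions thus entered some line sets and missed others through a replicate 1 list. The remaining 2 regions, 37.9 and 51.6 kb into the gene, were called in replicate 2 lists alone.

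The 6 regions called in all libraries differed in rank. The lowest percentile over the 6 lists was 87.5 at the GP1BB promoter, 78.1 near EFCAB13, 76.6 inside ITGB3, 76.6 inside GP1BA, 41.3 at the ITGA2B promoter and 9.12 at the GP9 start. Over all 3295 regions of this kind in the series, the median of that value was 50.2, with quartiles at 26.6 and 73.5. Thus 4 of the 6 lay above the upper quartile, and GP9 below the lower one.

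**Figure D4:**
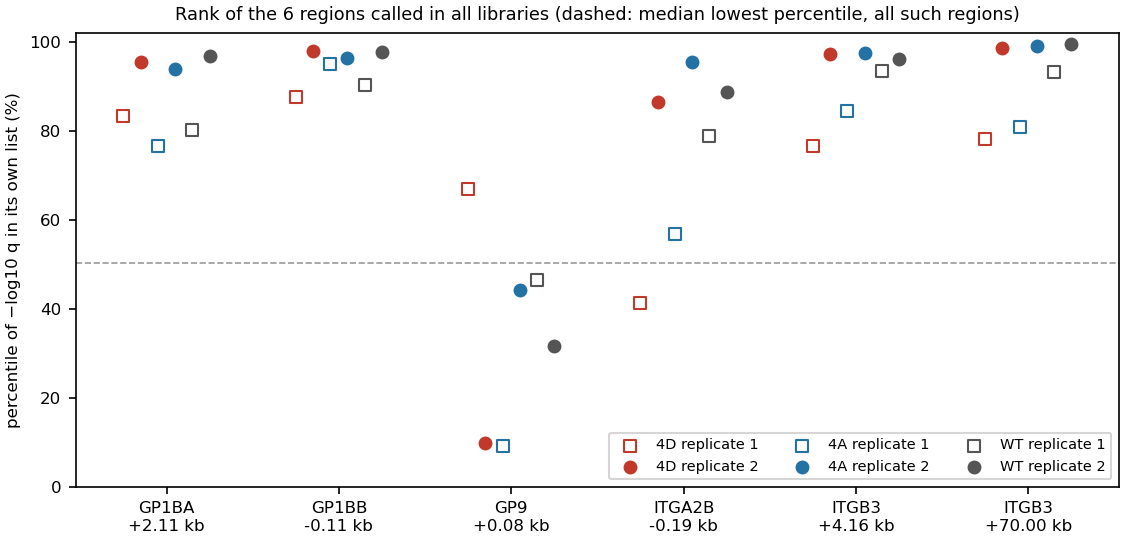
Percentile of −log10 q within its own list (y axis, %) for each of the 6 regions called in all libraries, by library, with the distance from the gene start under each gene. Points of GP1BA, GP1BB and ITGB3 stand at or above 76.6, those of GP9 between 9.12 and 66.8.

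Whether the mutant forms differ from the wild type at these genes was asked of the number of peaks per library. The 7 windows held 9 and 25 peaks in 4D (replicates 1 and 2), 8 and 24 in 4A, and 8 and 32 in WT. Replicate 2 had more peaks than replicate 1 in every line, and the lines overlapped fully. The means were 17.0 ± 11.3 in 4D, 16.0 ± 11.3 in 4A and 20 ± 17.0 in WT (SD, n = 2 each). The difference in means was −3.00 for 4D minus WT, −4.00 for 4A minus WT and 1.00 for 4D minus 4A. Each was smaller than the SDs of its lines, which are spreads between replicates whose lists differ greatly in length. Over libraries, the exact two-sided permutation p was 1.00, 1.00 and 0.667 (each 1.00 after Benjamini-Hochberg adjustment over 3 comparisons). These p-values do not measure the spread of a difference within a replicate number. With 2 libraries against 2, this exact permutation test cannot go below p = 0.333. Within replicate numbers, 4D minus WT was 1 (replicate 1) and −7 (replicate 2), 4A minus WT was 0 and −8, and 4D minus 4A was 1 and 1. With the replicate number as a block, the exact permutation p for 4D minus 4A was 0.50, the smallest that 2 pairs allow. In replicate 2, 4D had 0.781 times and 4A 0.750 times as many of these peaks as WT, beside whole lists 0.815 and 0.936 times as long. Per 1000 peaks of the list, the counts were 1.68 and 1.18 in 4D, 1.28 and 0.990 in 4A, and 1.18 and 1.24 in WT.

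**Figure D5:**
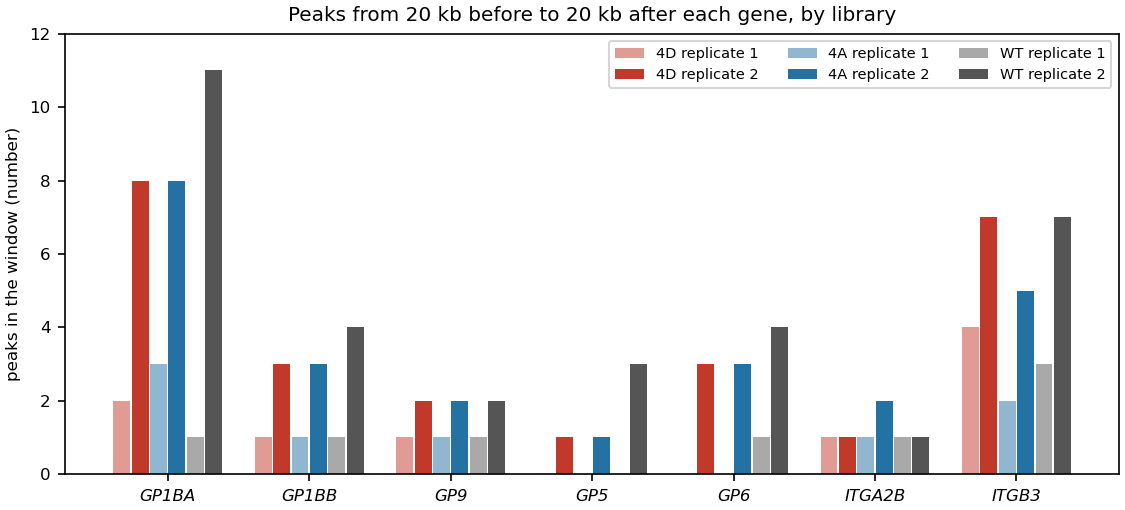
Number of peaks (y axis) in or within 20 kb of each gene, by library, with pale bars for replicate 1 and full bars for replicate 2. GP1BA has the most, with 8 in 4D, 8 in 4A and 11 in WT in replicate 2, and GP5 has none in replicate 1.

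By region, the 4D set held 9 of the 33 regions, the 4A set 8 and the WT set 8. No region was called in both replicates of 1 line and in neither of another. The sets differed at 5 regions, of which 4 are named above. The region inside RNF167 was in the 4D and 4A sets, that at the ITGB3 start in the 4D set, that before ITGB3 in the 4D and WT sets, and that at the GP6 promoter in the WT set. The other, at ENO3 (4948076 to 4950778), was in the 4A set alone, with −log10 q of 5.97 in replicate 1. In each of these, every line was called in replicate 2, and the sets parted in the short replicate 1 lists.

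Ligands, partner chains and signalling proteins of these receptors were followed as a list of 47 genes, chosen with earlier results known. Of these, 24 were called in 4D, 25 in 4A and 31 in WT, and 20 had a region in all 6 libraries. The background was 28.0% of all protein-coding genes in 4D, 31.1% in 4A, 34.9% in WT and 21.0% in all 6, and the list as a whole lay above it in each. At 7 of the 47 no library had a region, against 27.7% of all protein-coding genes. Of the 8 activators of the fibrinogen receptor and its links to the cytoskeleton, 7 (4D), 6 (4A) and 7 (WT) were called, also above that background. RASGRP2, the exchange factor that activates RAP1 in platelets, had a region between the 96.5th and the 100.0th percentile, 262 bp from its start site (chromosome 11, 64742308 to 64746562). TLN1, which encodes talin, the protein that switches the integrin on, had a region 111 bp from its start site with fold enrichments from 10.0 to 18.0. FERMT3 (kindlin-3), RAP1B, FLNA (filamin A) and YWHAZ (14-3-3ζ) also had regions in all 6 libraries. The RAP1B region lay 75882.5 bp from the start site. At FERMT3, 1 of the 2 lay 20677.5 bp from it, and at FLNA 1 of the 2 lay 5832 bp from it. Whether another gene lay nearer to a region was not examined for the partner genes.

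Among the 10 tyrosine kinase signalling genes, 6 were called in 4D, 6 in 4A and 9 in WT, above the background of 28.0%, 31.1% and 34.9%. FYN, SRC, LCP2 (SLP-76), LAT, VAV1 and PIK3CB had regions in all libraries, and BTK had none in any. The region lay 101.5 bp from the start site at FYN, 70 bp at LAT and 7 bp at PIK3CB, but 19035 bp at LCP2. At VAV1, 1 of the 2 lay 29008 bp from it. Of the 7 receptors for soluble agonists, 4 were called in 4D, 2 in 4A and 4 in WT, where the 4A count is near its background of 31.1%. F2RL3, the thrombin receptor PAR4, had a region 119 bp from its start site between the 96.3rd and the 99.9th percentile (chromosome 19, 16888503 to 16890879), and P2RX1, an ATP receptor, had one too. P2RY12, the ADP receptor, had no region in any library.

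Of 11 other surface proteins, 5 were called in 4D (background 28.0%), 8 in 4A (31.1%) and 7 in WT (34.9%), and PECAM1, CD9, MPIG6B and PEAR1 were among those with regions in all libraries. The region lay 17433 bp from the start site at CD9, 6290 bp at MPIG6B and 32601.5 bp at PEAR1. JAM3 had none. The ligands were called at 1 (4D), 2 (4A) and 2 (WT) of 6 genes, near or below the background of 28.0%, 31.1% and 34.9%. The fibrinogen genes FGA, FGB and FGG, all on chromosome 4, had no region in any library, as had 27.7% of all protein-coding genes. COL1A1, a collagen chain, had one in all 6. Partner chains and collagen receptors were called at 1 (4D), 1 (4A) and 2 (WT) of 5 genes, within 1 gene of the number that background gives, and CLEC1B had no region.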

How the data were processed

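CUT&RUN with an anti-HA antibody was analysed in HEL lines carrying RUNX1-4D, RUNX1-4A or WT RUNX1, 2 libraries each. The empty vector libraries entered only through the authors' peak calling, per the labels' design text. Per the submitters' processing notes the build was hg38 and the tools were MACS2 2.2.7.1, deepTools 3.5.1, Picard 2.25.6, Bowtie2 2.4.2 and cutadapt 3.4. The deposited lists give for each peak a fold enrichment, which is a linear ratio, −log10 p-value and −log10 q-value columns, and a score that is 10 times the −log10 q, cut to a whole number, within 1 unit. These are the authors' values. They rank and describe peaks, and where lists are set side by side they are not comparable measures of change and were not tested. The summit offset is deposited in bases.

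Peaks of the main chromosomes were merged at 1 bp of overlap (Python 3.11.15, pandas 2.3.3), and windows were counted across all protein-coding genes of RefSeq (GRCh38.p14). The functions were tested on simulated data. Members, lists and tests were chosen with earlier results of these data known. All 7 genes are named, with each region called in all libraries, at a gene start or parting the line sets, and partner genes with a region in all 6 or in no library, except 1 that is counted but not reported here. Exons were not analysed. Whether same-numbered libraries were prepared together is not known, and the within-number values take them as pairs. Deviations of same-numbered libraries from their line means correlated weakly over the 33478 regions (0.107 for 4A and WT, 0.183 for 4D and WT, 0.116 for 4D and 4A). With 2 libraries a line and every replicate 2 list the longer, these correlations cannot tell a pairing from the shared difference in list length. Depth is unknown, so no interval is given.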

Additional observations from a re-analysis of the deposited data

How the results depend on the processing

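Of 87 values under other settings, 71 kept their direction or stayed within 1.5 times the value given. The differences with the replicate number as a block are among the 71 by construction, since only their p-value is recomputed. Counting only regions within 1 kb of a start site, which leaves out GP1BA and ITGB3, gave 3 genes called in 4D and 3 in 4A, 3 regions in the 4D set, 3 in the 4A set and 4 in the WT set, and 3 regions in all 6 libraries. Within 2 kb of the gene the 4A set had 5 regions. Without replicate 1 the sets held 24 regions in 4D, 24 in 4A and 29 in WT, and 17 were shared. Leaving out replicates, the regions near the genes ranged from 9 to 24 in 4D, from 8 to 24 in 4A and from 8 to 29 in WT, and those shared from 6 to 17. The difference in peaks for 4D minus WT turned to 0.50 at equal list lengths within each number and ranged from −7.00 to 1.00 with 1 replicate left out, and 4A minus WT ranged from −8.00 to 0.00. For 4D minus 4A it turned to −0.50 with a −log10 q of at least 5 and to −0.50 within 1 kb of a start site. With the replicate number as a block the differences stayed −3.00, −4.00 and 1.00 (exact permutation p = 1.00, 1.00 and 0.50, the last being the smallest that block allows). With 1 replicate left out there is no test, and in the other settings the smallest possible p is above the threshold, so these p-values say nothing about stability. The cause of each change was not tested. The lengths of the replicate 1 lists limit every set.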

Other observations

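The region between ITGB3 and EFCAB13 had the same summit base (chromosome 17, 47323830) in all 6 libraries, so its summits had a range of 0 bp. Of the 3295 regions called in all libraries, 8 (0.243%) had a range of 0, and the median range was 107 bp. At the GP1BB promoter the range was 19 bp, which 2.03% of those regions matched or undercut. The other shared regions had ranges of 112 bp (GP1BA), 113 bp (ITGB3, inside the gene), 116 bp (GP9) and 168 bp (ITGA2B), near or above that median. The ranges are of the strongest peak per library, and why the summits agree at 1 site was not tested.

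The regions called at the 2 subunits of the fibrinogen receptor lay at different places. Their windows were 57.5 kb (ITGA2B) and 99.9 kb (ITGB3) long, and the counts below do not allow for length. At ITGA2B, 1 region at the promoter was called in every library and 1 more in 1 library. At ITGB3 the region over the start was called in 4 of 6 libraries, among them all 3 replicate 2 lists. It was missing only from short replicate 1 lists, so its absence there cannot be read as a difference between the subunits. Of the stronger regions, 1 lay 4.16 kb inside the gene. The other lay beyond its far end, 0.125 kb from EFCAB13, to which it is nearer.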
